A study of Homo sapiens with 18 samples.

Results

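The genes described here encode parts of the lysosome: 13 subunits of the vacuolar ATPase (V-ATPase), 18 proteins of the lysosomal lumen and 7 proteins of its membrane, 38 genes in all. They were listed by gene name. Each was read by its brightest probe set on the array, and 35 of the 38 had a probe set annotated to that gene alone. The probe sets of ATP6V1F and GLB1 were each shared with another gene, and ACP5 had none listed under its name, so these 3 were not analysed here. All 35 measured genes were bright enough to be tested, among 14130 of the 19775 genes on the array.

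The RNA came from 3 BRAF-mutant human melanoma cell lines, A375, SKMEL5 and WM2664, grown in RPMI with serum. Each line was treated with A-485, or with DMSO alone as the vehicle, for 6 h and for 24 h. A-485 is a small molecule that blocks the acetyltransferase activity of p300 and CBP, related coactivators that acetylate histones at enhancers and promoters. Each line and time had 1 A-485 array and 2 DMSO arrays, 18 arrays in 12 groups. All A-485 samples carry a dose label of 3.0 mM, whose unit was not checked. The labels do not say that the DMSO pairs were separate cultures, so p-values reflect only how far these samples scatter, possibly for technical reasons. Each cell line is a single established line, so a difference of A375 from the others is a difference between these lines.

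The V-ATPase is a rotary pump that uses ATP to move protons into the lysosome. Its V1 sector, on the cytosolic side, holds the ATP-splitting subunits, and its V0 sector, in the membrane, carries the protons. The acid it makes is needed by the hydrolases of the lumen, which break down proteins, glycans, glycogen and lipids, while proteins of the limiting membrane export the products and let ions through. Many of these genes carry in their promoters a palindromic E-box, TCACGTGA, known as the CLEAR element, to which TFEB, TFE3 and MITF can bind. MITF belongs to the same small family of factors as TFEB and TFE3 and directs the melanocyte lineage, and melanosomes, the pigment organelles of melanocytes, are related to lysosomes.

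RefSeq's promoter table for GRCh38.p14, which spans each gene's start, held 23 of the 35 measured genes. TCACGTGA was present in 7 of these 23 promoters (30.4%), against 283 of 27305 promoters in the whole table (1.04%). Its core CACGTG was present in 11 of 23 (47.8%), against 7.43% of all promoters, and every full element contains this core. The related E-box CATGTG, searched on both strands, was present in 4 of 23 (17.4%), against 11.2% of all. The other 2 motifs read the same on both strands. TCACGTGA was in 2 of the 7 V-ATPase promoters and 5 of the 16 promoters of luminal and membrane proteins. The element was already known from many of these genes, so its share here is not independent evidence. A match is a string of letters and was not tested for binding.

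The 4 promoters below, all on the plus strand, belong to genes whose responses are described further on, and were picked with those responses known. MCOLN1 (chr19:7522374-7522673) and GAA (chr17:80101331-80101630) each hold 2 copies of TCACGTGA. LAMP1 (chr13:113296989-113297288) holds 6 copies of CACGTG, 2 of them within TCACGTGA, and ATP6V0B (chr1:43974710-43975009) holds 2 copies of CACGTG without the outer bases. Capitals mark each CACGTG, with its outer bases where the full element is present.
MCOLN1 promoter: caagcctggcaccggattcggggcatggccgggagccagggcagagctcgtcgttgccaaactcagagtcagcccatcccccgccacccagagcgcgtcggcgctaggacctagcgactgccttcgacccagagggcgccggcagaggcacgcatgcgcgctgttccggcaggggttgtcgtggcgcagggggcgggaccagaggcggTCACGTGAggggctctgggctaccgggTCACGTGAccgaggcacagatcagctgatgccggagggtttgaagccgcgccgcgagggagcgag
GAA promoter: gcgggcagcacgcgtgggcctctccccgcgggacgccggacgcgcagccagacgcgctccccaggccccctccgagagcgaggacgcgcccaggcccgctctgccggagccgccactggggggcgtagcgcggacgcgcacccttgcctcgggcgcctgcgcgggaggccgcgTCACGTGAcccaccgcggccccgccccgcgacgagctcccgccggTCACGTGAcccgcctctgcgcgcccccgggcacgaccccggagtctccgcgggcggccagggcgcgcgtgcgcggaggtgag
LAMP1 promoter: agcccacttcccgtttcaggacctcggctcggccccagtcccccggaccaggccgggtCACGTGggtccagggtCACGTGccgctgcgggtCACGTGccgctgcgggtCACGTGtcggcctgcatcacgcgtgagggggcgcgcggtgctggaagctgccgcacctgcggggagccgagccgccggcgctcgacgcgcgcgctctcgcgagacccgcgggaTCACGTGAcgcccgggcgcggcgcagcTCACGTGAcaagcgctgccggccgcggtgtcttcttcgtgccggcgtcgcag
ATP6V0B promoter: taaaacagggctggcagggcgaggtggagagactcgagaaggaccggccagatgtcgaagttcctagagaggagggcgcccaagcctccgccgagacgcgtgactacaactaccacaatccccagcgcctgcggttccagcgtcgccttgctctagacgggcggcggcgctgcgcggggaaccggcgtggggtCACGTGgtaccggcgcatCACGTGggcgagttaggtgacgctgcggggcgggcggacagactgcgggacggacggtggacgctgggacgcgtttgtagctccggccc

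Deposited intensities were on different scales, with array medians of 19.5 to 29.0, so they were quantile normalized and are called scaled intensity below, with a floor of 32. Replicate DMSO arrays correlated at 0.990 to 0.994 over genes, and each array had 56.9% to 58.7% of genes above the floor. The number of arrays limits the precision: the median standard error over genes was 0.13 (log2) for the response of 1 line at 1 time and 0.08 for the mean of the 3 lines. A gene was called higher or lower at an adjusted p under 0.05 in limma, with Benjamini-Hochberg adjustment over all 14130 genes. Genes of another line that the labelled line lacks were compared with the labelled line's other arrays of the same treatment. Their median excess, as a share of that other line's level, was highest on 3 DMSO arrays: 2% (WM2664 6 h replicate 1), 0.819% (A375 6 h replicate 1) and 0.865% (WM2664 24 h replicate 2). Medians on other arrays went down to -1.28%, on WM2664 6 h replicate 2 over 5 genes. The arrays it was compared with include WM2664 6 h replicate 1, so this value does not measure scatter alone, and no test was run. Of 6 leukocyte markers on the array, PTPRC, CD163, CD14 and TYROBP were at the floor on all 18 arrays, and the 6 summed to at most 96.2 above the floor. The 6 fibroblast markers, with COL3A1 and PDGFRA at the floor on all arrays, summed above the floor to 256 to 310 with A-485 against 418 to 468 with DMSO in A375, 4007 to 4238 with A-485 against 4606 to 5419 with DMSO in SKMEL5, and 3035 to 5662 with A-485 against 2929 to 3101 with DMSO in WM2664. The 5 keratinocyte markers on the array, with KRT5 at the floor, summed to 3888 to 4182 with A-485 against 3953 to 4169 with DMSO in A375, 2793 to 2954 with A-485 against 2934 to 3024 with DMSO in SKMEL5, and 2204 to 2564 with A-485 against 2207 to 2401 with DMSO in WM2664. Their part in the results below was not tested. The 7 melanocyte lineage markers on the array summed to 1228 to 1943 above the floor on DMSO arrays of A375, against 47111 to 48741 in SKMEL5 and 32308 to 34746 in WM2664.

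Most lysosomal transcripts were lower in A375 than in the mean of the other lines on DMSO, although 9 members had their lowest DMSO mean in WM2664 and 1, CTSK, in SKMEL5. On DMSO arrays, 32 of the 35 genes were lower in A375 than in the mean of SKMEL5 and WM2664, 2 were higher and 1 was not called, with a median difference of -0.93 (log2). Of all 14130 genes, 32.9% were called lower and 37.7% higher in this comparison, with a median of 0. The 16 luminal proteins were all lower, with a median of -1.40, and 11 of them by at least 2-fold. The V-ATPase subunits differed less: 10 of 12 were lower and 1 higher, with a median of -0.63, and 1 reached 2-fold. Of the 7 membrane proteins 6 were lower and 1 higher, with a median of -0.76. In all, 15 members were called with a difference of at least 2-fold, each of them lower in A375, against 23.9% of all genes in either direction. In 23 members all 4 A375 DMSO arrays lay below all 8 DMSO arrays of the other lines, as they did for 17% of all genes tested. That share includes genes at the floor. In bulk RNA, fewer cells that express a gene and less RNA per cell cannot be told apart.

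The largest difference was in ASAH1, the acid ceramidase that splits ceramide into sphingosine and a fatty acid. Its scaled intensity was 793, 793, 741 and 801 on the A375 DMSO arrays, against 6326, 6437, 6503 and 6543.5 in SKMEL5 and 5558.5, 5396, 5760 and 5806 in WM2664. The groups were far apart, with a difference of -2.95 ± 0.03 (log2 ± SE; adjusted p = 7.7e-11, limma). TPP1, a serine protease that clips tripeptides from the ends of proteins, had 219, 268, 233 and 257 in A375, against 1391, 1841, 2255 and 2313.5 in SKMEL5 and 1554, 1641.5, 1874 and 1826 in WM2664. All A375 arrays were below all others, and the difference was -2.90 ± 0.09 (adjusted p = 4.14e-08).

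NEU1, the sialidase that removes terminal sialic acids, had 176.5, 149, 206 and 198 in A375, against 1164, 1238, 1499 and 1275 in SKMEL5 and 499, 565, 694 and 773 in WM2664. The 3 lines did not overlap, and A375 differed by -2.31 ± 0.07 (log2; adjusted p = 4.61e-08). CTSD, the main aspartic protease of lysosomes, had 144, 106, 107 and 113.5 in A375, against 537, 547, 660 and 605 in SKMEL5 and 376, 406, 540 and 486.5 in WM2664. Here SKMEL5 and WM2664 overlapped each other but not A375, and the difference was -2.14 ± 0.08 (adjusted p = 1.79e-07). The next were PSAP, the precursor of the saposins that help hydrolases reach sphingolipids (-1.99 ± 0.03), and ATP6V1B2, the B subunit of the V1 sector (-1.76 ± 0.03), the V-ATPase member with the largest difference.

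Both members called higher in A375 lay between the other lines. ATP6V0B, a proteolipid of the V0 ring, had 2564, 2223, 2451 and 2377 in A375, against 2951, 2951, 3254 and 3184.5 in SKMEL5 and 1287, 1294, 1488 and 1238 in WM2664. A375 was thus below every SKMEL5 array and above every WM2664 array, and its difference from their mean was 0.25 ± 0.06 (log2; adjusted p = 0.00524). CLN3, the membrane protein lost in juvenile Batten disease, had 279, 262, 315 and 290.5 in A375, against 270, 307, 322 and 338 in SKMEL5 and 148, 192, 220 and 228 in WM2664. A375 overlapped SKMEL5, and the difference of 0.22 ± 0.08 (adjusted p = 0.029) lost its call in 8 of the other settings. ATP6V0D1, of the V0 stalk, was not called (-0.13 ± 0.06, adjusted p = 0.0671).

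Melanocyte lineage markers moved with this difference: all 7 that were tested were lower in A375, and their part in the lysosomal difference was not tested. In MITF, scaled intensity was 460, 407, 426 and 468 on A375 DMSO arrays, against 6851, 6784, 6600 and 6712 in SKMEL5 and 5066, 5126, 4981 and 5044 in WM2664. TFE3 differed the other way, with 1219, 1204, 1207.5 and 1235 in A375, against 743, 764, 804 and 776 in SKMEL5 and 420, 430, 543 and 403 in WM2664 (1.05 ± 0.07, adjusted p = 4.99e-06). TFEB was at the floor of 32 on all arrays of SKMEL5 and WM2664 and at 89.0 on 1 of 4 A375 DMSO arrays, and TFEC was at the floor on all 18 arrays.

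**Figure D1:**
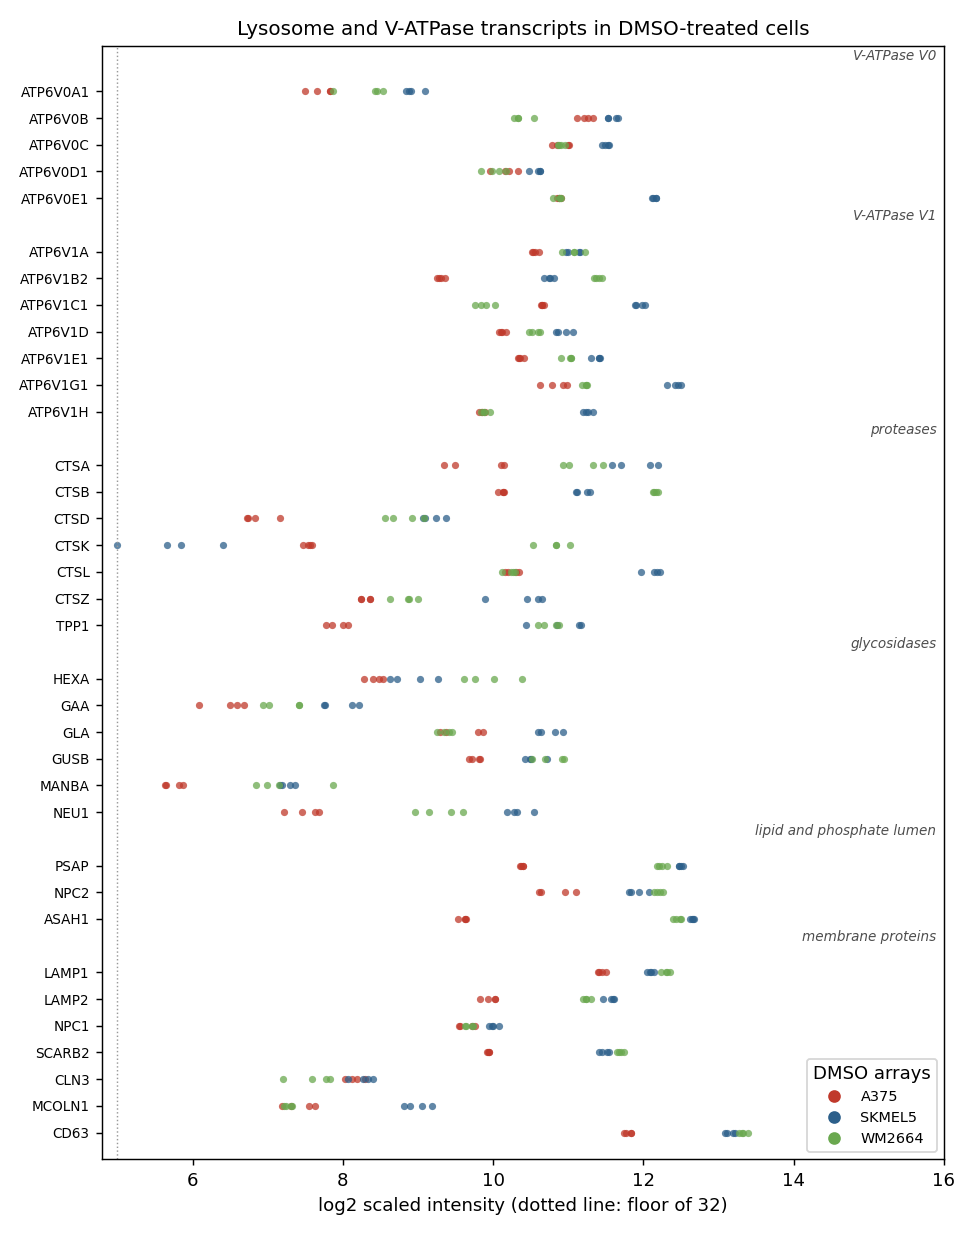
Scaled intensity (log2, horizontal axis) of the 35 lysosomal genes, grouped by role, on the 12 DMSO arrays; each point is 1 array, coloured by line. A375 has the lowest mean in 25 genes, WM2664 in 9 and SKMEL5 in 1, and the luminal proteins show the widest gaps.

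SKMEL5 and WM2664 also differed from each other. On DMSO arrays 23 members were higher in SKMEL5, 9 were lower and 3 were not called, while 31.6% of all genes were called higher and 28.6% lower. The V-ATPase subunits leaned towards SKMEL5, with 10 of 12 higher, 1 lower and a median difference of 0.61 (log2). The largest was ATP6V1C1, a V1 subunit involved in joining V1 to V0, at 3798, 4172, 3829 and 4052 in SKMEL5, against 1039, 962, 866 and 914.5 in WM2664. The lines did not overlap, and the difference was 2.07 ± 0.04 (adjusted p = 1.34e-08). ATP6V1B2 went the other way (-0.65 ± 0.04, adjusted p = 2.92e-06), with 1631 to 1793 in SKMEL5 and 2608 to 2787 in WM2664.

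Among the proteases the lines differed in both directions. CTSL, a cysteine protease, had 4636, 4771, 4001 and 4533 in SKMEL5, against 1231, 1248, 1115.5 and 1205 in WM2664, a difference of 1.90 ± 0.05 (log2; adjusted p = 2.64e-08). CTSK, the cysteine protease best known from bone resorption, had 57.3, 50.7, 32 and 84.5 in SKMEL5, against 1478, 1828.5, 1828.5 and 2084 in WM2664. One SKMEL5 array was at the floor and 2 more lay within 2-fold of it, so the fitted -5.08 ± 0.27 is not an exact size. CTSB, another cysteine protease, was also lower in SKMEL5 (-0.97 ± 0.05, adjusted p = 1.34e-06). Between times on DMSO, 6 members were higher at 24 h and 1 was lower, against 6.98% and 7.17% of all genes. CTSA, the carboxypeptidase that protects NEU1, was the largest of them (0.54 ± 0.04, adjusted p = 0.00189).

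A-485 changed lysosomal transcripts little in size. No member was called with a change of 2-fold or more in any line or time, against 2.72% and 3.62% of all genes in A375 at 6 h and 24 h, 3.62% and 7.81% in SKMEL5, and 5.10% and 6.47% in WM2664, and the largest difference was that of ATP6V1B2 in WM2664 at 24 h (-0.98 on the log2 scale). Averaged over the lines, 9 members were higher and 6 lower at 6 h, against 21.9% and 15.2% of all genes, and 10 were higher and 7 lower at 24 h, against 26.0% and 20.5% of all genes. Melanocyte lineage markers moved with treatment: their sum above the floor was 360 to 517 with A-485 against 1228 to 1943 with DMSO in A375, 37595 to 39870 against 47111 to 48741 in SKMEL5, and 18285 to 21960 against 32308 to 34746 in WM2664, and their part in the responses below was not tested. The member medians were 0.07 and 0.05, beside 0.02 and 0.00 over all genes. Over genes with a mean log2 of at least 6, as all members had, they were 0.06 and 0.04. Counts of this size are near the background in each direction. At 6 h 15 members were called in either direction, against 37.1% of all genes, and this number was 4 without the A-485 array of WM2664 at 6 h and 17 at most when another array was left out. Each line and time had 1 A-485 array, so leaving it out took its line out of the mean or line difference, here and below. Such values cannot tell an outlying array from a line that differs. On the deposited values without quantile normalization, 6 members were called at 6 h and 3 at 24 h, and 0 or 1 in any single line and time. The single A-485 array of a group was assumed to vary like the DMSO pairs, and quantile normalization hides a shift shared by most genes.

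Line by line, the counts also stayed near or under the background. In A375, 2 members were higher and 1 lower at 6 h (background 5.86% and 6.86%), and 5 were higher and 1 lower at 24 h (9.05% and 8.39%). In SKMEL5, 0 were higher and 2 lower at 6 h (12.5% and 9.33%), and 3 were higher and 6 lower at 24 h (20.1% and 15.1%). In WM2664, 5 were higher and 3 lower at 6 h (14.8% and 10.7%), and 6 were higher and 6 lower at 24 h (17.6% and 14.6%). Of the 35 members, 20 were called in some line and time. A further 11 were called in no line, time or mean: ATP6V0D1, ATP6V1G1, CTSA, CTSB, CTSD, CTSK, CTSZ, TPP1, MANBA, LAMP2 and CLN3. Not being called does not mean unchanged. CTSK had 345 with A-485 against 189.5 and 178 with DMSO in A375 at 24 h, a difference of 0.91 (log2). Its spread in the fit is shared by all lines and includes SKMEL5 DMSO arrays at 32 and 84.5 at 24 h, at or near the floor. MANBA, a mannosidase, lay within 2-fold of the floor on 5 of 6 A375 arrays.

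**Figure D2:**
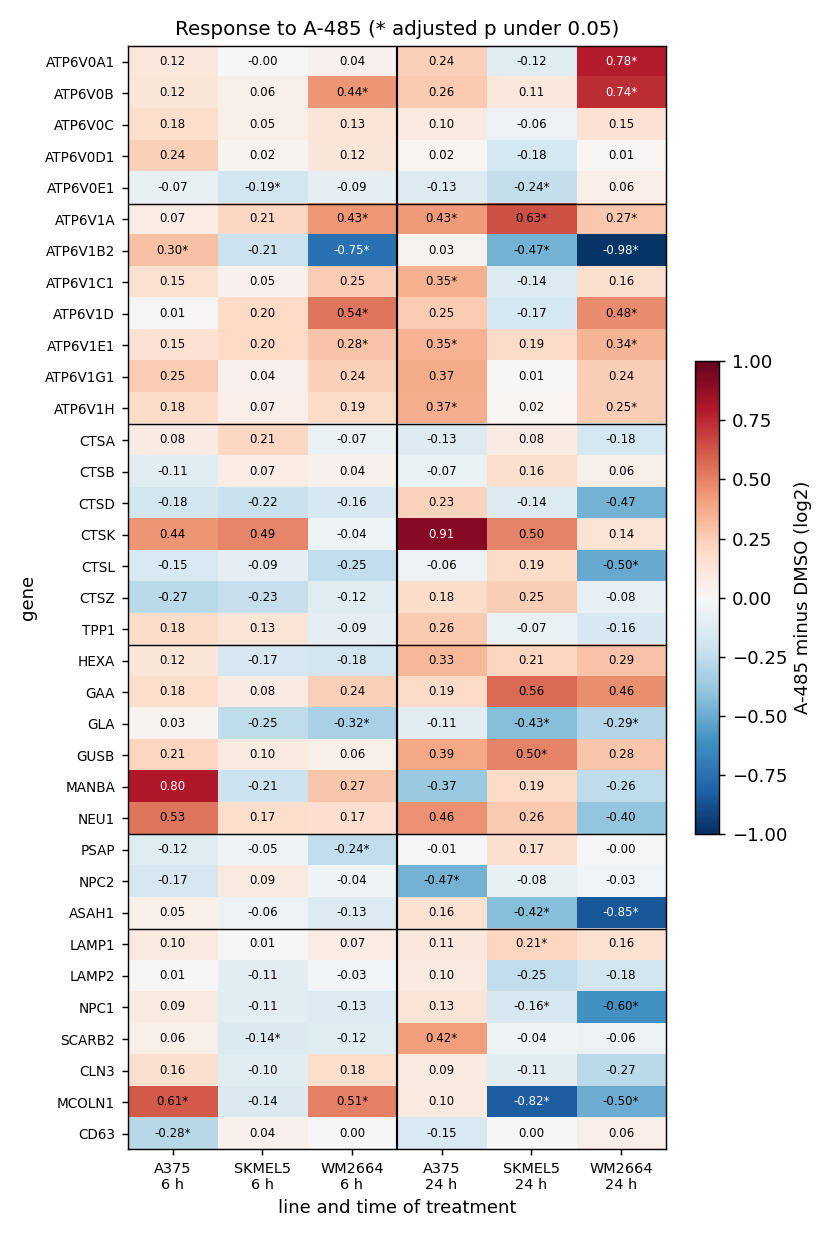
Difference between A-485 and DMSO (log2, colour and printed value) for the 35 genes (rows, grouped by role with lines between the groups) in each line and time (columns); an asterisk marks an adjusted p under 0.05. V-ATPase rows are mostly red in WM2664 and A375, with ATP6V1B2 the deepest blue at -0.98 in WM2664 at 24 h.

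More V-ATPase subunits were called higher than lower under A-485 in WM2664, A375 and the mean over lines, but not in SKMEL5. Averaged over the lines, 7 of 12 were higher and 2 lower at 6 h (21.9% and 15.2% of all genes), with a median of 0.15 (log2). At 24 h 5 were higher and 2 lower (26.0% and 20.5%), with a median of 0.20. In WM2664 4 were higher and 1 lower at 6 h (14.8% and 10.7%), and 6 higher and 1 lower at 24 h (17.6% and 14.6%). In A375 1 was higher at 6 h (5.86%) and 4 were higher at 24 h (9.05%), with none lower (6.86% and 8.39%). The 1 at 6 h was ATP6V1B2, which was lower in the mean over lines. In SKMEL5 0 were higher and 1 lower at 6 h (12.5% and 9.33%), and 1 was higher and 2 lower at 24 h (20.1% and 15.1%). The counts in SKMEL5, the count in A375 at 6 h and all counts of lower subunits were near or under these shares. The shares include dim genes, which were called less often, while every subunit had a mean log2 over 6. Of the 9980 genes with a mean log2 of at least 6, 4730 were called in the mean at 6 h, 60.1% of them higher. At 24 h 5713 were called in the mean, 55.9% of them higher, and 4309 in WM2664, 54.3% of them higher. The 2 called lower in the mean at both times were ATP6V1B2 and ATP6V0E1, with ATP6V0E1 at -0.12 ± 0.03 at 6 h (adjusted p = 0.023) and -0.10 ± 0.03 at 24 h (adjusted p = 0.0318), calls lost in 5 and 11 other settings. At 6 h 9 of 12 had a positive difference in all 3 lines, against 27% of all genes, and at 24 h 5 of 12 did, against 25.2%. A gene at the floor on all arrays of a line has a difference of 0 there and cannot count as positive. These shares therefore run low for genes above the floor, as all 12 subunits were, and were not computed for such genes alone. The count at 6 h depended on scaling and on the lines averaged. With arrays scaled to their 75th percentile it was 1 higher and 2 lower. Without the A-485 array of WM2664, and so over SKMEL5 and A375 alone, it was at its lowest, 1 higher and 1 lower. At 24 h the count of higher subunits ran from 3, without the A-485 array of WM2664, to 8, without that of SKMEL5.

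ATP6V1A, the catalytic A subunit of V1, rose in all 3 lines at 24 h and was the only member called higher in each. At 24 h its scaled intensity was 1973 with A-485 against 1475 and 1459 with DMSO in A375, 3150 against 2014 and 2046 in SKMEL5, and 2734 against 2157 and 2385 in WM2664. Each A-485 array lay above both DMSO arrays of its line. The differences were 0.43 ± 0.08, 0.63 ± 0.08 and 0.27 ± 0.08 (log2; adjusted p = 0.0111 in A375, 0.000877 in SKMEL5 and 0.0397 in WM2664, limma), and the call in WM2664 was lost in 15 other settings. At 6 h it had 1610 with A-485 against 1505.5 and 1557 with DMSO in A375, 2617 against 2277 and 2256 in SKMEL5, and 2760 against 2170 and 1935 in WM2664, where alone it was called (0.43 ± 0.08, adjusted p = 0.00746). Averaged over the lines it was higher by 0.24 ± 0.05 at 6 h (adjusted p = 0.0062) and by 0.44 ± 0.05 at 24 h (adjusted p = 0.00022), and the 6 h mean was 0.14 and not called without the A-485 array of WM2664.

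ATP6V1E1, of the peripheral stalk that holds V1 in place, had 1654 with A-485 against 1292 and 1310.5 with DMSO in A375 at 24 h, 3001 against 2741 and 2532.5 in SKMEL5, and 2528 against 2075 and 1919 in WM2664. It was called in A375 (0.35 ± 0.07, adjusted p = 0.0117) and WM2664 (0.34 ± 0.07, adjusted p = 0.00675). Its mean over lines was 0.21 ± 0.04 at 6 h (adjusted p = 0.0043) and 0.29 ± 0.04 at 24 h (adjusted p = 0.000656). At 6 h the A-485 array was likewise above both DMSO arrays in each line, with 1473 against 1364 and 1299.5 in A375, 3137 against 2721 and 2729 in SKMEL5, and 2552 against 2096 and 2098 in WM2664.

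ATP6V0B rose in WM2664 at both times. It had 1752 with A-485 against 1287 and 1294 with DMSO at 6 h, and 2263 against 1488 and 1238 at 24 h. The A-485 arrays were above all 4 DMSO arrays, by 0.44 ± 0.11 (log2; adjusted p = 0.0281) and 0.74 ± 0.11 (adjusted p = 0.00246). It was not called in A375 or SKMEL5 at either time, with 2898 against 2451 and 2377 in A375 and 3468 against 3254 and 3184.5 in SKMEL5 at 24 h. Its mean over lines was 0.21 ± 0.07 at 6 h (adjusted p = 0.0441), a call lost in 16 other settings, and 0.37 ± 0.07 at 24 h (adjusted p = 0.003), which fell to 0.19 without the A-485 array of WM2664. ATP6V0A1, the large membrane subunit, had 505 against 370 and 233 in WM2664 at 24 h (0.78 ± 0.24, adjusted p = 0.0406), where the DMSO arrays themselves lay far apart and the call was lost in 16 other settings.

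ATP6V1D, of the rotating shaft, was also called in WM2664, with 2161 against 1548 and 1432.5 at 6 h (0.54 ± 0.07, adjusted p = 0.00181) and 2115.5 against 1583 and 1461 at 24 h (0.48 ± 0.07, adjusted p = 0.00248). In A375 it had 1117 against 1113 and 1100 at 6 h, just above both. Its mean over lines was 0.25 ± 0.04 at 6 h (adjusted p = 0.00328) and 0.19 ± 0.04 at 24 h (adjusted p = 0.00987). Without the A-485 array of WM2664 these were 0.11 and 0.04, and neither was called. The 24 h mean was also not called without that of A375 (0.15), and was 0.36 without that of SKMEL5. ATP6V1H and ATP6V1C1, which regulate the pump and the joining of its sectors, were called in A375 at 24 h, with 1191 against 948 and 899 for ATP6V1H (0.37 ± 0.06, adjusted p = 0.00671) and 2046 against 1607 and 1598 for ATP6V1C1 (0.35 ± 0.08, adjusted p = 0.0194). The dimmer probe set of ATP6V1H pointed the other way in the mean at 24 h (-0.31), against 0.21 for the brighter one.

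ATP6V1B2 fell in WM2664 and SKMEL5. This gene encodes the B subunit, which alternates with subunit A in the V1 ring. In WM2664 it had 1608 with A-485 against 2608 and 2787 with DMSO at 6 h, and 1354 against 2713 and 2639 at 24 h. In SKMEL5 it had 1441 against 1631 and 1710 at 6 h, and 1273.5 against 1737 and 1793 at 24 h. In A375, where its DMSO level was lowest, it had 771 against 632 and 623.5 at 6 h, and 650 against 613 and 660 at 24 h. The A-485 array was below both DMSO arrays at both times in the first 2 lines, above both in A375 at 6 h and between them in A375 at 24 h.

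The differences of ATP6V1B2 were -0.75 ± 0.06 at 6 h (adjusted p = 0.000232) and -0.98 ± 0.06 at 24 h (adjusted p = 4.71e-05) in WM2664. In SKMEL5 they were -0.21 ± 0.06 at 6 h, which was not called, and -0.47 ± 0.06 at 24 h (adjusted p = 0.00126). In A375 the difference at 6 h was 0.30 ± 0.06 (adjusted p = 0.0254), a call lost in 7 other settings, and at 24 h it was 0.03 ± 0.06. The A375 response less the averaged response of SKMEL5 and WM2664 was 0.78 ± 0.08 at 6 h (adjusted p = 0.00103) and 0.76 ± 0.08 at 24 h (adjusted p = 0.00052). Averaged over lines the difference was -0.22 at 6 h and -0.47 at 24 h (log2). Without the A-485 array of WM2664, these were means of SKMEL5 and A375 alone. The first was then positive, at 0.04, and not called, and the second was -0.22, still called. Without the A-485 array of A375, and so over SKMEL5 and WM2664 alone, they were -0.48 and -0.73. Without the WM2664 A-485 array of that time, the A375 contrasts were against SKMEL5 alone, at 0.51 at 6 h and 0.50 at 24 h. ATP6V0E1, a small V0 subunit, was lower in SKMEL5, with 3986 against 4483 and 4581 at 6 h (-0.19 ± 0.05, adjusted p = 0.0499), a call lost in 14 other settings, and 3829 against 4433 and 4592 at 24 h (-0.24 ± 0.05, adjusted p = 0.0129).

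**Figure D3:**
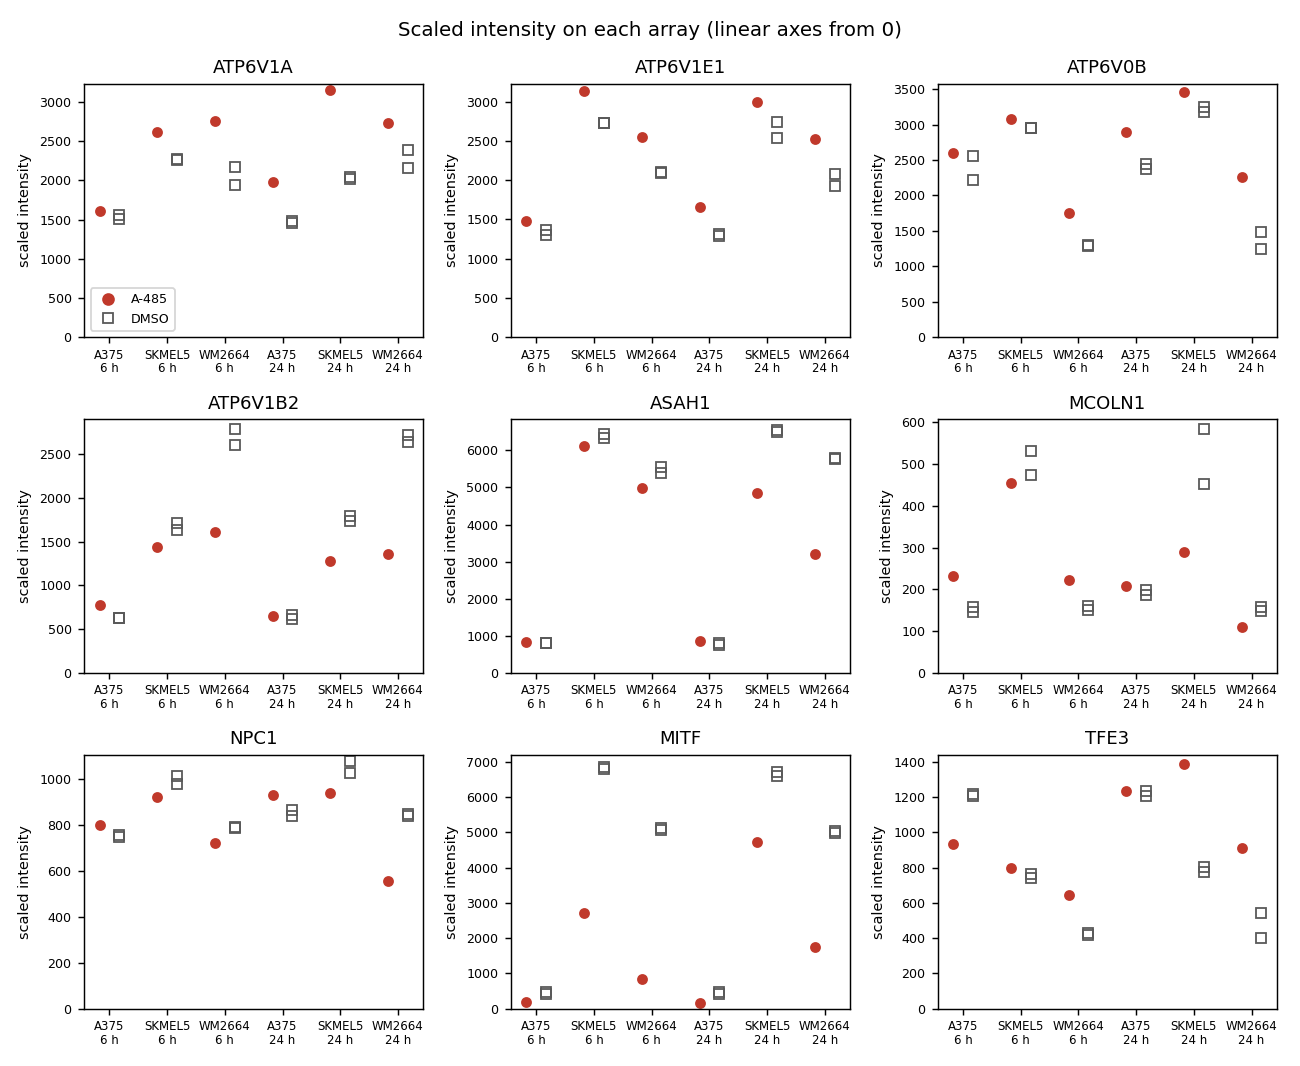
Scaled intensity (linear axis from 0) on each array for 7 lysosomal genes and for MITF and TFE3, with A-485 (filled red circle, 1 array) left of DMSO (open squares, 2 arrays) in each line and time. ATP6V1B2 and ASAH1 fall in SKMEL5 and WM2664 at 24 h, while ATP6V1A lies above its DMSO arrays in all 3 lines.

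Luminal proteins showed no shared direction. Averaged over lines, 1 of 16 was higher and 3 lower at 6 h (median -0.02, log2), against 21.9% and 15.2% of all genes. At 24 h 3 were higher and 3 lower (median 0.03), against 26.0% and 20.5%. These counts were near or under the shares of all genes. None of the 7 proteases was called in the mean at 24 h, and CTSL was the only one called at 6 h (-0.16 ± 0.05, adjusted p = 0.0284). The 3 called higher at 24 h were glycosidases, and GLA was the 1 glycosidase of 6 called lower.

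Of the lipid-handling luminal genes, ASAH1 fell at 24 h in the 2 lines that expressed it most. It had 3215 with A-485 against 5760 and 5806 with DMSO in WM2664, and 4861 against 6503 and 6543.5 in SKMEL5. In A375 it had 858 against 741 and 801, above both DMSO arrays. The differences were -0.85 ± 0.05 in WM2664 (adjusted p = 3.49e-05), -0.42 ± 0.05 in SKMEL5 (adjusted p = 0.000769) and 0.16 ± 0.05 in A375, which was not called. At 6 h it was called in no line, with 822 against 793 and 793 in A375, 6124 against 6326 and 6437 in SKMEL5 and 4990 against 5558.5 and 5396 in WM2664. The mean over lines at 24 h was -0.37 ± 0.03 (adjusted p = 6.35e-05), and it was -0.13 without the A-485 array of WM2664 and -0.64 without that of A375, called in both. The other 3 probe sets of ASAH1 above the floor on all arrays also had negative differences in both lines at 24 h, from -0.47 to -1.17.

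PSAP and NPC2 were each called in 1 line, and also in a mean over lines, PSAP at 6 h (-0.14) and NPC2 at 24 h (-0.19). Without being called there, PSAP with A-485 was also below both DMSO arrays in A375 at 6 h (1210 against 1320 and 1318). In SKMEL5 it was above both at 24 h (6593 against 5902 and 5806). PSAP had 4040.5 against 4856 and 4720 in WM2664 at 6 h (-0.24 ± 0.06, adjusted p = 0.0187), below both DMSO arrays, while its other bright probe set differed by -0.02 there. NPC2, which carries cholesterol through the lumen to NPC1, had 1511 with A-485 against 1994 and 2207 with DMSO in A375 at 24 h (-0.47 ± 0.08, adjusted p = 0.00523), a call lost without the 3 DMSO arrays named above. At 24 h CTSL had 817 against 1115.5 and 1205 in WM2664, below both DMSO arrays (-0.50 ± 0.08, adjusted p = 0.00266). In SKMEL5 it had 4874 against 4001 and 4533, above both, and was not called.

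Among the glycosidases GUSB, the beta-glucuronidase, had 2148 with A-485 against 1682 and 1379 with DMSO in SKMEL5 at 24 h (0.50 ± 0.13, log2; adjusted p = 0.0192). It had 1126 against 899 and 821 in A375 and 2355.5 against 1930 and 1962 in WM2664, above both DMSO arrays in each line but called in neither of these. Its mean was 0.39 ± 0.07 (adjusted p = 0.00369). GAA, which breaks down glycogen, had 106 against 90.4 and 96.1 in A375 at 24 h, 427 against 299 and 280 in SKMEL5, and 235 against 170 and 170 in WM2664. Each A-485 array was above both DMSO arrays, and the mean was 0.40 ± 0.12 (adjusted p = 0.0263), with 9 other settings losing the call. HEXA, the alpha subunit of hexosaminidase, had a mean of 0.28 ± 0.09 (adjusted p = 0.0444) that was lost in 22 other settings, with 460 against 372 and 358 in A375, 655 against 614 and 522 in SKMEL5 and 1429 against 1333 and 1031.5 in WM2664.

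GLA, the alpha-galactosidase lacking in Fabry disease, was lower in SKMEL5 at 24 h, with 1174 against 1555 and 1600 (-0.43 ± 0.09, adjusted p = 0.0102). In WM2664 it had 531 against 650 and 681 at 6 h (-0.32 ± 0.09, adjusted p = 0.0404) and 534 against 702 and 609 at 24 h (-0.29 ± 0.09, adjusted p = 0.049), calls lost in 14 and 16 other settings. In A375 it lay between the 2 DMSO arrays at 6 h (929 against 887 and 934) and below both at 24 h (597 against 666 and 627). Its mean was -0.18 ± 0.05 at 6 h (adjusted p = 0.0332) and -0.28 ± 0.05 at 24 h (adjusted p = 0.00431). The 6 h mean of GLA lost its call in 7 other settings and was -0.11 without the A-485 array of WM2664. NEU1 was called only in the mean at 6 h (0.29 ± 0.08, adjusted p = 0.0276), a call lost in 8 other settings, and the mean was 0.17 without the A-485 array of A375. NEU1 had 234.5 against 176.5 and 149 in A375, 1353 against 1164 and 1238 in SKMEL5, and 596 against 499 and 565 in WM2664.

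Of the membrane proteins, MCOLN1 had a lower mean response at 24 h than at 6 h, and its sign turned in WM2664 alone. It encodes TRPML1, the channel that releases calcium from lysosomes. At 6 h it had 232.5 with A-485 against 146 and 158 with DMSO in A375, 454 against 474 and 531 in SKMEL5, and 221 against 160 and 151 in WM2664. At 24 h it had 207 against 187 and 199 in A375, 290 against 583 and 452 in SKMEL5, and 109 against 149 and 159 in WM2664. The A-485 array was thus above both DMSO arrays in A375 and WM2664 at 6 h, and below both in SKMEL5 and WM2664 at 24 h.

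The differences of MCOLN1 at 6 h were 0.61 ± 0.15 in A375 (adjusted p = 0.036) and 0.51 ± 0.15 in WM2664 (adjusted p = 0.0431). At 24 h they were -0.82 ± 0.15 in SKMEL5 (adjusted p = 0.00419) and -0.50 ± 0.15 in WM2664 (adjusted p = 0.0376). The mean response at 24 h minus that at 6 h was -0.73 ± 0.12 (adjusted p = 0.00577), and it was not called without the 3 DMSO arrays named above. The SKMEL5 call at 24 h was lost in 2 other settings, both of them the values as deposited, while the calls in A375 and WM2664 at 6 h and in WM2664 at 24 h were lost in 15, 17 and 13.

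NPC1, the membrane protein that takes cholesterol from NPC2, fell in WM2664 at 24 h, with 555 with A-485 against 842 and 847.5 with DMSO (-0.60 ± 0.05, adjusted p = 9.08e-05). It was also lower in SKMEL5 (943 against 1079 and 1027; -0.16 ± 0.05) and lay above both DMSO arrays in A375 (931 against 842 and 865), where it was not called. SCARB2, the receptor that delivers glucocerebrosidase to lysosomes, rose in A375 at 24 h, with 1299 against 976 and 969 (0.42 ± 0.04, adjusted p = 0.000453). CD63, a tetraspanin of lysosomes and melanosomes, was lower in A375 at 6 h, with 2847.5 against 3477 and 3435.5 (-0.28 ± 0.04, adjusted p = 0.00676). LAMP1, a major glycoprotein of the membrane, was higher in SKMEL5 at 24 h, with 5066 against 4510 and 4230 (0.21 ± 0.06, adjusted p = 0.0369), a call lost in 14 other settings.

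The response of A375 differed from that of the other lines for a few members. At 24 h 6 members were higher and 2 lower in the A375 response minus the mean response of SKMEL5 and WM2664, against 12.1% of all genes in each direction, and at 6 h 2 were higher and 2 lower, against 5.60% and 6.32%. The 4 largest at 24 h were ASAH1 (0.79 ± 0.06, adjusted p = 0.000166), MCOLN1 (0.76 ± 0.18, adjusted p = 0.0207), ATP6V1B2 and NPC1 (0.51 ± 0.06, adjusted p = 0.000693), each lower with A-485 in both SKMEL5 and WM2664 and not called in A375. SCARB2 followed (0.47 ± 0.05, adjusted p = 0.000485). NPC2 (-0.42 ± 0.09, adjusted p = 0.0151) and CD63 (-0.19 ± 0.05, adjusted p = 0.0453) were lower in the A375 response. At 6 h the other members called besides ATP6V1B2 were SCARB2 (0.19 ± 0.05, adjusted p = 0.0495), ATP6V1D (-0.35 ± 0.09, adjusted p = 0.0481) and CD63 (-0.30 ± 0.05, adjusted p = 0.0124). The count at 24 h was 5 without A375 DMSO 24 h replicate 1. MCOLN1 lost its call without that array (0.72) or the SKMEL5 A-485 array (0.60), and NPC1 was 0.28, still called, without the WM2664 A-485 array. Calls were lost in 17 other settings for ATP6V1D and 13 for SCARB2 at 6 h, and in 14 for CD63 at 24 h.

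**Figure D4:**
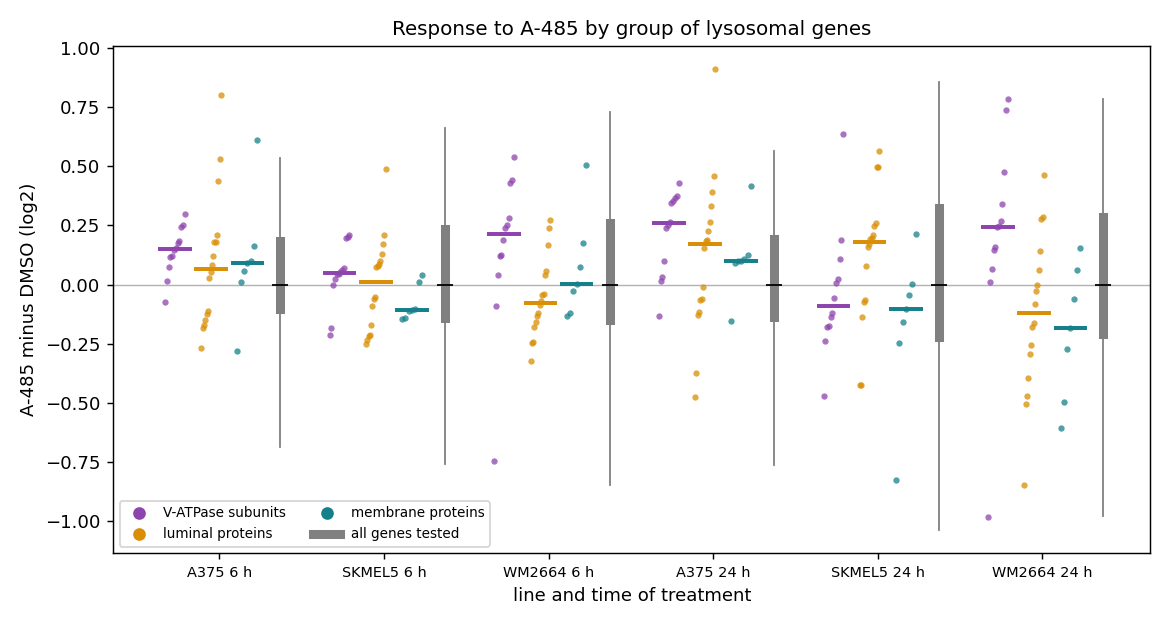
Difference between A-485 and DMSO (log2) in each line and time for the 12 V-ATPase subunits, 16 luminal proteins and 7 membrane proteins, with 1 point a gene and a bar at the median of the group; the thick grey bar runs from the lower to the upper quartile of all 14130 genes, and the thin grey line shows their wider spread. The V-ATPase median lies between 0.15 and 0.26 in WM2664 and A375 and at 0.05 and -0.09 in SKMEL5.

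Few members responded differently at 24 h and at 6 h. In the mean over lines, 2 members had a higher response at 24 h and 4 a lower one, against 9.61% and 11.1% of all genes. The lower responses were those of MCOLN1, ASAH1 (-0.33 ± 0.04, adjusted p = 0.00224), ATP6V1B2 (-0.25 ± 0.05, adjusted p = 0.0152) and NPC1 (-0.16 ± 0.04, adjusted p = 0.0218). The higher ones were PSAP (0.19 ± 0.05, adjusted p = 0.0257) and SCARB2 (0.17 ± 0.03, adjusted p = 0.00939). Without either WM2664 A-485 array, ASAH1 was -0.13, NPC1 -0.0084 and PSAP 0.17, and without either A375 A-485 array SCARB2 was 0.08, none of them called. PSAP also lost its call without either SKMEL5 A-485 array (0.18), and ATP6V1B2, NPC1 and MCOLN1 lost theirs without the 3 DMSO arrays named above. Without either A375 A-485 array, ASAH1 was -0.54 and NPC1 -0.26, both called.

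Transcripts of the factors that bind the CLEAR element went in different directions under A-485. MITF was lower in all 3 lines at both times, by -1.69 ± 0.05 at 6 h and -1.17 ± 0.05 at 24 h in the mean (log2; adjusted p = 7.21e-07 at 6 h and 2.59e-06 at 24 h). TFE3 had 1388 with A-485 against 804 and 776 with DMSO in SKMEL5 at 24 h, 911 against 543 and 403 in WM2664, and 1235 against 1207.5 and 1235 in A375. At 24 h it was higher in SKMEL5 (0.81 ± 0.15, adjusted p = 0.00421) and WM2664 (0.96 ± 0.15, adjusted p = 0.00214) and not called in A375 (0.02 ± 0.15), and the A375 response minus that of the other lines was -0.87 ± 0.18 (adjusted p = 0.0115). At 6 h it was called higher in WM2664 (0.60 ± 0.15, adjusted p = 0.0211) and was not called in SKMEL5 (0.08 ± 0.15), in A375 (-0.37 ± 0.15) or in the mean (0.10 ± 0.08), and the A375 response minus that of the other lines was -0.72 ± 0.18 (adjusted p = 0.0429). Whether these changes bear on the lysosomal genes was not tested.

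Related genes outside the 38 were described by the same fit, in lists written with earlier results of these data known. Their counts were not repeated under other settings or with arrays left out. Over all genes, 21.9% were called higher and 15.2% lower at 6 h, and 26.0% higher and 20.5% lower at 24 h, and at 6 h the counts of these lists were near or under those shares. Of 11 other V-ATPase genes tested, 2 were higher and 0 lower at 6 h in the mean over lines, and 8 were higher and 1 lower at 24 h, with a median of 0.36 (log2). They included ROGDI, a homologue of a yeast V-ATPase assembly factor (0.98 ± 0.15, adjusted p = 0.0014), TCIRG1, the a3 subunit of V0 (0.68 ± 0.05, adjusted p = 3.25e-05), WDR7 (0.62 ± 0.12) and ATP6V0A2 (0.43 ± 0.08), with ATP6V0D2 lower (-0.93 ± 0.12). Of 30 other lysosomal enzymes, 4 were higher and 3 lower at 6 h, and 12 higher and 4 lower at 24 h. HGSNAT (0.75 ± 0.06), ACP2 (0.75 ± 0.09) and GALC (0.72 ± 0.05) were the largest increases, and CTSC (-0.70 ± 0.03) and NAGLU (-0.65 ± 0.06) the largest decreases.

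Of 24 other membrane and sorting proteins, 6 were higher and 2 lower at 6 h (21.9% and 15.2% of all genes) and 9 higher and 6 lower at 24 h (26.0% and 20.5%). At 24 h MFSD8 (0.62 ± 0.09) and SLC17A5, the lysosomal sialic acid exporter (0.50 ± 0.03), were at one end. CLCN7, a chloride-proton exchanger (-0.48 ± 0.04), and M6PR, a mannose 6-phosphate receptor (-0.41 ± 0.04), were at the other. Of 19 autophagy genes, 5 were higher and 2 lower at 6 h and 7 higher and 2 lower at 24 h, beside the same shares of all genes. At 24 h ULK1, the kinase that starts autophagy (0.68 ± 0.16), GABARAPL2 (0.55 ± 0.04) and STX17 (0.51 ± 0.07) were higher and SQSTM1, an autophagy receptor (-0.31 ± 0.03), was lower. Of 11 genes of the TFE factors and their regulators, 3 were higher and 5 lower at 24 h, among them RRAGB (0.82 ± 0.09) and FNIP2 (-0.33 ± 0.05).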

How the data were processed

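RNA of 18 samples was isolated by Qiazol followed by RNeasy, labelled, and hybridised to 3' expression arrays, per the labels' protocols. The deposited values are intensities on a linear scale, some below 0; for the software, background correction and scaling behind them, the sources used here give nothing. The intensities were quantile normalized, floored at 32 and put on the log2 scale. Each gene was represented by its brightest probe set with 1 gene symbol, and genes with a mean log2 value above the 40th percentile of all probe sets were kept, 14130 of 19775. A model with a mean for each of the 12 groups was fitted with limma 3.58.1 (R 4.3.3), with 6 residual degrees of freedom, and p-values were adjusted by Benjamini-Hochberg over all genes tested within a comparison. The script was tested on simulated data. DMSO samples with the same replicate number showed no shared deviation: the correlations of their deviations between groups ran from -0.04 to 0.06, with 0 of 15 pairs over 0.1. This cannot settle whether such samples were handled together. The members and gene lists were chosen with earlier results of these data known. Every array is given for the members with the largest called differences in each comparison. Alternatives were other scalings, floors, filters and probe set rules, a replicate block, and leaving out arrays.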

Additional observations from a re-analysis of the deposited data

Results flagged for a closer look

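These responses differed between lines or between times by a test of the difference itself (limma, adjusted p under 0.05 over all genes tested). The response of A375 minus the mean response of SKMEL5 and WM2664 (log2) at 6 h was 0.78 for ATP6V1B2, 0.19 for SCARB2, -0.35 for ATP6V1D and -0.30 for CD63. At 24 h it was 0.79 for ASAH1, 0.76 for MCOLN1, 0.76 for ATP6V1B2, 0.51 for NPC1, 0.47 for SCARB2, 0.34 for ATP6V1C1, -0.42 for NPC2 and -0.19 for CD63. For ATP6V1C1 it was 0.19 and not called without the SKMEL5 A-485 array, and the call was also lost without some single DMSO arrays. The mean response at 24 h minus that at 6 h was 0.19 for PSAP, 0.17 for SCARB2, -0.73 for MCOLN1, -0.33 for ASAH1, -0.25 for ATP6V1B2 and -0.16 for NPC1. Groups of 1 or 2 arrays are too small for a test of single outlying arrays.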

How the results depend on the processing

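Counts are of members called. Without quantile normalization and at a floor of 32, the A-485 counts were 0 in SKMEL5 and A375 at both times, 1 in WM2664 at each time, 6 and 3 in the means at 6 h and 24 h, and 0 for the 24 h minus 6 h response, for the A375 differences at both times and for DMSO between times; with a floor of 1 all of these were 0 except 1 in the mean at 6 h. Scaled to the 75th percentile, the counts were 1 in A375 at 6 h, 1 and 5 for the A375 differences at 6 h and 24 h, and 4 for DMSO between times. A floor of 16 gave 0 in SKMEL5 at 6 h, 5 in WM2664 at 6 h, 8 in the mean at 6 h, 3 for 24 h minus 6 h and 1 for the A375 difference at 6 h, and a floor of 64 gave 4 in SKMEL5 and 13 in WM2664 at 6 h. In SKMEL5 at 6 h the count was 0 with a mean log2 of at least 6, 1 with the mean of all probe sets, 1 without _x_at and _s_at probe sets and 4 with an intensity trend and robust estimation, and the A375 difference at 6 h was 2 under the first 3 of these. Without _x_at and _s_at probe sets the count was 5 and 7 in WM2664 at 6 h and 24 h and 7 in the mean at 6 h. With the replicate block it was 0 in SKMEL5 and 9 in the mean at 6 h, and 142 of 163 calls kept their side of the threshold. The labels give these samples only a shared number. Without the 3 DMSO arrays on which another line's genes were highest, an alternative chosen after seeing the data, WM2664 at 6 h had 5.

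Leaving out each array in turn gave 2 to 4 and 6 to 9 members in A375 at 6 h and 24 h, 0 to 3 and 8 to 11 in SKMEL5, 4 to 10 and 8 to 12 in WM2664, 4 to 17 and 13 to 19 in the means, 4 to 9 for 24 h minus 6 h, 2 to 5 and 5 to 9 for the A375 differences, 32 to 34 for A375 and 31 to 32 for SKMEL5 against WM2664 on DMSO, and 4 to 9 for DMSO between times. With an A-485 array left out, the means and A375 differences were over the lines that remained.

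Called differences (log2) changed sign on the deposited values, with either floor, for ATP6V0E1 (0.031) and SCARB2 (0.0835) in SKMEL5 at 6 h, GLA in WM2664 at 6 h (0.19) and 24 h (0.035), PSAP in WM2664 at 6 h (0.0498), and, in the mean at 6 h, ATP6V0E1 (0.082), ATP6V1B2 (0.0212), CTSL (0.0712), GLA (0.0988), PSAP (0.0327) and CD63 (0.0111). They did so too for SCARB2 in 24 h minus 6 h (-0.0044) and in the A375 difference at 6 h (-0.039), and for ATP6V0C (0.0226), ATP6V1C1 (0.0526) and NPC1 (0.114) in A375 on DMSO. On the deposited values with a floor of 32, the median over all genes also moved. It was 0.277 in SKMEL5 at 6 h, 0.39 and 0.178 in WM2664 at 6 h and 24 h, and 0.234 in the mean at 6 h. It was -0.168 in 24 h minus 6 h, -0.306 in the A375 difference at 6 h and 0.186 in A375 on DMSO. Relative to these medians, each of the differences listed so far kept its direction. Scaled to the 75th percentile, ATP6V0C in the mean at 6 h was -0.0029. With the mean of all probe sets, ATP6V1H was -0.11 in WM2664 at 24 h and -0.0314 in the mean, SCARB2 -0.0286 in the mean at 24 h, and ATP6V0C 0.21 in A375 and -0.068 in SKMEL5 minus WM2664 on DMSO. ATP6V1A was 0.17 in SKMEL5 minus WM2664 on DMSO, where it was not called in the main fit (-0.007). HEXA in A375 on DMSO was 0.12 without _x_at and _s_at probe sets. In the means, ATP6V1B2 at 6 h ran from -0.479, without the A375 A-485 array, to 0.0414, without the WM2664 A-485 array, while CD63 at 6 h was 0.0203 and SCARB2 at 24 h -0.0516 without the A375 A-485 array of that time. In SKMEL5 minus WM2664 on DMSO, MANBA was not called in the main fit (0.04). It ran from -0.14, without WM2664 DMSO 24 h replicate 2, to 0.221 with another array left out, and was -0.18 without the 3 arrays named above, where ATP6V1A was 0.0702. The cause was not tested. The number of arrays limits the precision.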
